A study of Mus musculus with 2 samples.

Results

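The cells described here are *Lyz1*-high cells of mouse ileal enteroids, 134 of the 4374 cells sequenced. *Lyz1* encodes lysozyme, the enzyme by which Paneth cells are commonly recognized. A cell was taken when it had at least 2000 UMIs (unique molecular identifiers, the counted molecules), at least 20 *Lyz1* UMIs per 10000 of its own UMIs, and under 10 per 10000 for the sum of the 4 enteroendocrine genes *Chga*, *Chgb*, *Cpe* and *Neurod1*. Of the 134 cells, 60 came from the control library and 74 from the Taf4 IEC library. *Lyz1* was thus used to choose the cells, and its own values are given as a description.

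The study asked what the loss of *Taf4* does to enteroids, which are crypts grown as hollow epithelial spheres with buds. *Taf4* encodes part of TFIID, the complex that recognizes core promoters for RNA polymerase II. Both libraries were made from ileal crypts of C57Bl6/129sv mice aged 4 months and from live cells sorted on day 8 of culture. The Taf4 IEC cells carried *Taf4* lox/lox alleles with VilCreERT2, a tamoxifen-inducible Cre under the villin promoter, which is active in intestinal epithelium, and received 1 µM 4-hydroxytamoxifen (4-OHT) for 3 days from day 5. The label of the control library gives it as WT with ethanol, whereas the methods of the study give *Taf4* lox/lox enteroids without Cre that also received 4-OHT. With 1 library per condition, genotype, treatment and library cannot be told apart, no test between conditions was possible, and all intervals are 95% intervals that cover counting error only.

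Paneth cells lie at the base of small intestinal crypts, between the stem cells. They store antimicrobial proteins in granules, among them lysozyme and the alpha-defensins (cryptdins), which the protease Mmp7 cuts to their active form, and they supply Wnt, Notch and EGF family ligands to the stem cells beside them. They arise from the same Atoh1-dependent secretory lineage as goblet cells, which release mucus through *Muc2*, *Tff3* and *Fcgbp*.

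The cells held 4442 to 33942 UMIs in control, with a median of 16902, and 2520 to 62050 UMIs in Taf4 IEC, with a median of 30637. Other cells of at least 2000 UMIs had medians of 18750 and 28931. The genes detected per *Lyz1*-high cell had medians of 3339.5 and 4579.5, and the mitochondrial share of UMIs had medians of 6.31% and 5.74%. Since Taf4 IEC cells were deeper, shares of cells with a UMI are also given after each cell was thinned to 2000 UMIs. The libraries shared 2 cell barcodes, of which 0 belonged to *Lyz1*-high cells.

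*Taf4* itself (chr2:179912146-179976646, mm10) was read first, as a check of the labels. It had 6 UMIs in the 60 control cells and 21 UMIs in the 74 cells of the library labelled as knockout, levels of 0.0565 and 0.101 per 10000 (log2 ratio 0.85, interval -0.51 to 2.44). In the other cells of at least 2000 UMIs the levels were 0.0695 and 0.0912 (log2 0.39, 0.12 to 0.66), so *Taf4* was not lower in the library labelled as knockout in either set of cells. The counts carry no position within the gene, and 3′ reads of a transcript that keeps its end after recombination would still be counted. The paralog *Taf4b* had 0 and 11 UMIs.

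*Lyz1*-high cells made up a larger share of the Taf4 IEC library. They were 60 of 2119 control cells of at least 2000 UMIs (2.83%, exact interval 2.17 to 3.63%) and 74 of 921 Taf4 IEC cells (8.03%, 6.36 to 9.98%). The shares differed by 5.20 percentage points (3.35 to 7.26). Of all cells at any depth, they were 2.34% (1.79 to 3.00%) and 4.09% (3.22 to 5.10%). The Taf4 IEC library had more shallow cells, and under 2000 UMIs the *Lyz1* and enteroendocrine conditions were met by 5 of 444 control and 50 of 890 Taf4 IEC cells. The condition on enteroendocrine genes removed 7 of 67 and 5 of 79 cells. Shares of sorted live cells also depend on which cells survive dissociation.

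*Lyz1* spread widely among the cells the rule took. Its level per 10000 UMIs was 20.0 in the lowest, 47.1 in the median and 497 in the highest control cell, against 20.9, 122 and 974 in Taf4 IEC. Summed over all cells the level was 104 and 188, while in the other deep cells it was 0.555 and 1.18. The ranges of the libraries overlapped throughout.

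The label of Paneth cells held only in part. The most abundant transcripts after mitochondrial and ribosomal ones were those of the goblet peptide *Tff3* and of *Spink4*, a goblet and Paneth protease inhibitor, at 171 and 137 per 10000 in control and 387 and 366 in Taf4 IEC. *Lyz1* and the defensin *Defa24* stood next, at 104 and 113 in control and 188 and 167 in Taf4 IEC. *Tff3* reached 20 per 10000 in 55 of 60 and 73 of 74 cells, and *Muc2*, the gel-forming mucin, reached 10 in 4 of 60 (6.67%) and 26 of 74 cells (35.1%). Of the 4 Paneth markers that the rule did not use (*Defa24*, *Ang4*, *Mmp7* and *Itln1*), at least 3 had a UMI in 29 of 60 control cells (48.3%) and in 72 of 74 Taf4 IEC cells (97.3%). After thinning these were 7 (11.7%) and 52 cells (70.3%). Free RNA can place such UMIs in any cell, so enterocytes with *Apoa1* of at least 10 per 10000 served as background: there the same count was 1 of 92 and 23 of 103 cells at median depths of 21327.5 and 40471 UMIs, and 0 and 2 cells after thinning. The cells are therefore called *Lyz1*-high, and the name Paneth is kept for marker genes.

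**Figure D1:**
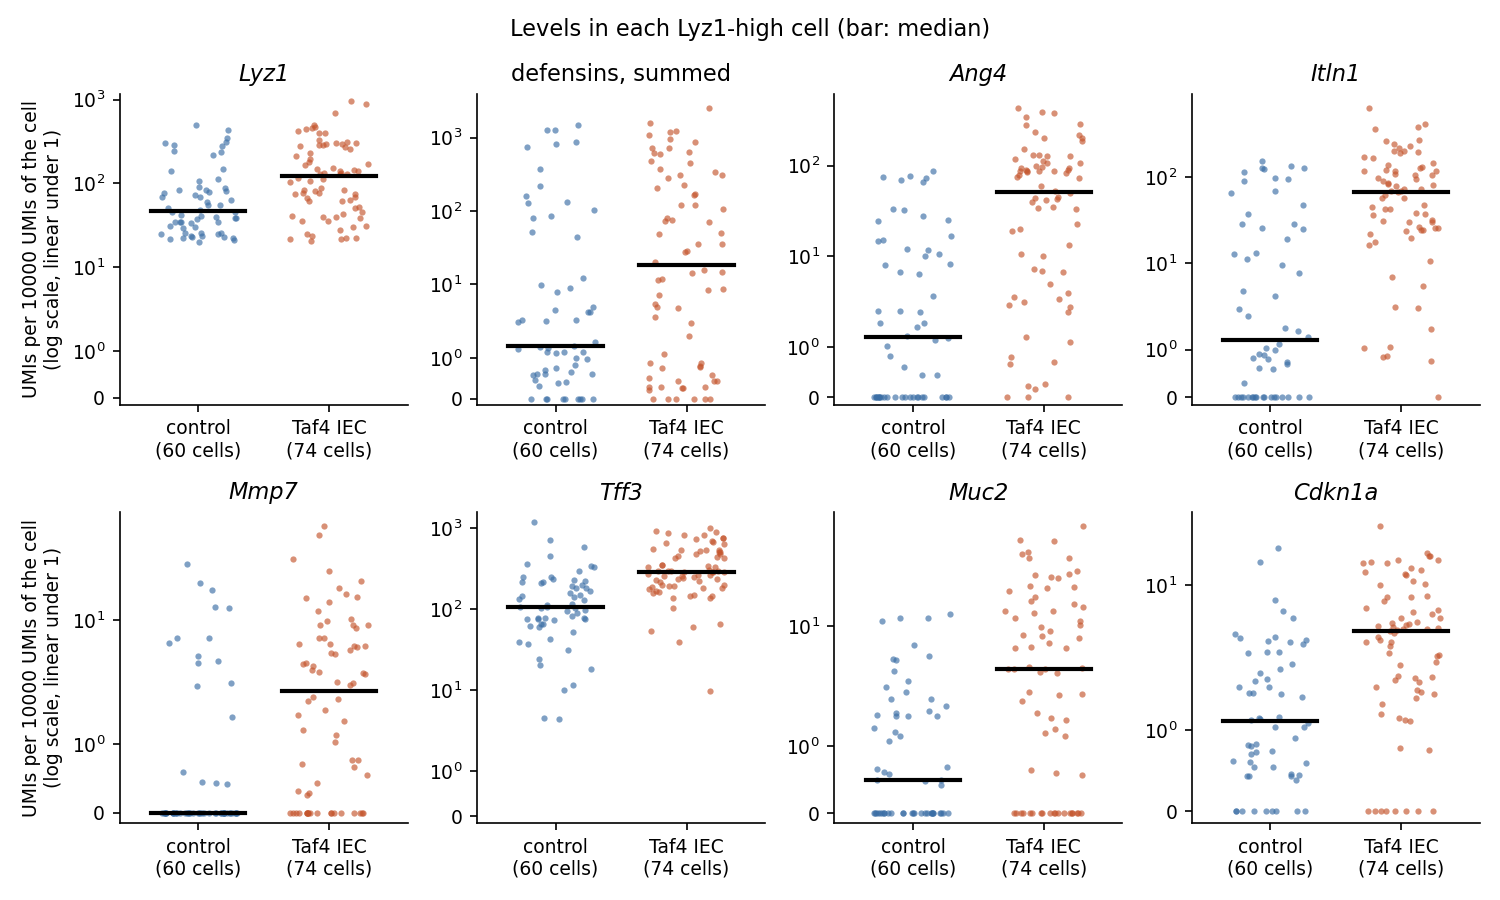
Level of 8 genes or sums in each of the 60 control (blue) and 74 Taf4 IEC (orange) *Lyz1*-high cells, in UMIs per 10000 UMIs of the cell on a scale that is logarithmic above 1 and linear under it, with black bars at the medians. Every panel shows overlapping libraries, with Taf4 IEC medians above control, for example 51.1 against 1.28 for *Ang4*, and many cells with no or few defensin UMIs beside maxima of 1501 and 2536.

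Relative to the other deep cells, the genes that stood highest in both libraries mixed both lineages. *Itln1*, which encodes the lectin intelectin-1, was 4.62 log2 units higher in control and 4.11 in Taf4 IEC. The tryptase gene *Tpsg1* differed by 3.95 and 3.96, *Defa24* by 3.67 and 3.80, *Defa17* by 3.61 and 3.99, *Spink4* by 3.59 and 3.68 and *Muc2* by 3.59 and 3.46. The secretory lineage factors *Atoh1* and *Spdef* were 2.82 and 3.04 units higher in control and 3.92 and 3.77 in Taf4 IEC. Since the cells were chosen from these same counts, these differences are a description.

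*Lyz1*, *Ang4*, *Itln1* and *Mmp7*, the Paneth genes on which the following comparison turns, are shown by 30 bases of their core promoters, from 45 to 16 bases before the transcription start, because TFIID binds there and *Taf4* encodes one of its subunits. The bases are those of RefSeq on GRCm38.p6, the assembly of mm10, read from 5′ to 3′ on the strand of the gene. For *Itln1* the start is that of the transcript in the promoter table, which lies inside the span of the gene given further on. Capitals mark the letters TATAAA or TATATA on that strand, which are forms of the TATA box bound by the TBP subunit of TFIID.
*Lyz1*, chr10:117292884-117292913, minus strand: agggacttggaggatgcttaaatagcaggc
*Itln1*, chr1:171535310-171535339, minus strand: ctcactgggctttccccataaaaggaccaa
*Ang4*, chr14:51773606-51773635, minus strand: cccgtcacacgagcacTATATAttaccagc
*Mmp7*, chr9:7692045-7692074, plus strand: attcagggctgagaagccaTATAAAtttct
TATAAA was found on the forward strand between 45 and 15 bases before the start in 2.25% of 32851 promoters, and TATATA in 1.13%, so the *Mmp7* and *Ang4* letters are uncommon ones. On either strand of the whole 300 bases, TATAAA stood in 13.6% and TATATA in 5.67% of promoters. No match in the other 2 windows says only that these letters are not there. *Defa24* had no entry.

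Alpha-defensins, the small antimicrobial peptides of Paneth granules, were higher in Taf4 IEC when summed over all cells. The 20 defensin genes listed in the files gave 123 UMIs per 10000 in control (120.5 to 124.8) and 220 in Taf4 IEC (217.7 to 221.7). The log2 ratio was 0.84 (0.81 to 0.87). Per cell, the sum was 0 in the lowest, 1.44 in the median and 1501 in the highest control cell, and 0, 18.1 and 2536 in Taf4 IEC. Many cells of both libraries held few or none, and 9 control and 6 Taf4 IEC cells had no defensin UMI.

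The sum was carried by a minority of defensin-rich cells. A level of at least 100 per 10000, set after the values were seen, was reached by 12 of 60 control cells (20%) and 26 of 74 Taf4 IEC cells (35.1%), a difference of 15.1 points (-1.22 to 30.2), and these cells held 96.0% and 96.7% of all defensin UMIs. The interval of that difference includes 0. As a description, since the cells were divided by the sum itself, the defensin level was 612.5 and 613.6 per 10000 in defensin-rich cells (log2 0.00, -0.03 to 0.03) and 6.13 and 11.0 in the remaining cells (log2 0.85, 0.71 to 1.00).

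The mix of defensins differed between the libraries. *Defa24* (chr8:21734494-21735471) was 91.9% of defensin UMIs in control and 75.8% in Taf4 IEC. Its level ranged from 0 over a median of 1.38 to 1392 per 10000 in control cells, and from 0 over 12.7 to 1077 in Taf4 IEC cells. Summed, it was 113 and 167 (log2 0.56, 0.53 to 0.59), but in defensin-rich cells alone it was lower in Taf4 IEC, at 564 and 462 (log2 -0.29). The other 19 defensins together had 9.99 and 53.2 UMIs per 10000 (log2 2.41, 2.32 to 2.50).

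A few cells decided most of these other defensins. *Defa21* and *Defa22* had 0 UMIs in control and 1142 and 1202 UMIs in Taf4 IEC, each in 4 cells, with 53.5% and 68.9% of the UMIs in 1 cell. With a floor of 3 counts put in for the control cells they were 195-fold and 206-fold higher. The lower limits of these log2 ratios were 7.31 and 7.38. *Defa30* went from 85 to 4269 UMIs (log2 4.69, 4.38 to 5.02), 41.1% of them in 1 cell, and *Gm14851* from 0 to 144 UMIs in 3 cells. *Defa17* was the next most abundant in control and less concentrated, at 8.28 and 16.6 per 10000 (log2 1.00, 0.90 to 1.11). Of the 20 defensins, 14 had at least 30 UMIs over both libraries, but 11 of these had fewer than 30 in control and 6 had none, so that the minimum itself favours members that are high in Taf4 IEC. As a description, 13 of the 14 were higher and 1, *Gm7861*, lower (log2 -0.02), and 12 were at least 2-fold higher. The median log2 ratio was 2.47, with genes without control UMIs set at the floor of 3 counts. The 3 that reached 30 UMIs in control alone were *Defa24*, *Defa17* and *Defa30*, with the ratios given. Among all 7016 genes of at least 30 UMIs, 6.21% were at least 2-fold higher and 3.11% at least 2-fold lower. Defensins are near-identical copies, so that UMIs of one may be counted for another or dropped, and single members are uncertain.

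The granule proteins *Ang4* and *Itln1* were the Paneth genes that differed most broadly over the cells. *Ang4* (chr14:51763892-51773590), which encodes a bactericidal ribonuclease, had 0, 1.28 and 87.9 UMIs per 10000 in the lowest, median and highest control cell and 0, 51.1 and 432 in Taf4 IEC. Its level was 12.1 and 87.6, which is 7.21-fold higher in Taf4 IEC (log2 2.85, 2.77 to 2.93). After thinning, a UMI of *Ang4* remained in 45% of control and 83.8% of Taf4 IEC cells. In the enterocytes, which measure free RNA, *Ang4* was instead lower in Taf4 IEC, at 0.712 and 0.220 per 10000.

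*Itln1* (chr1:171518123-171535325) had 0, 1.28 and 152 per 10000 in the lowest, median and highest control cell and 0, 68.0 and 635 in Taf4 IEC. Its summed level was 28.0 and 94.0, or 3.36-fold higher (log2 1.75, 1.69 to 1.80). The ranges overlapped, but the median Taf4 IEC cell lay above most control cells for both genes. In defensin-rich cells *Itln1* differed by 1.44 and *Ang4* by 2.35 log2 units, and in the remaining cells by 1.56 and 2.85, so both were higher in Taf4 IEC on either side of that cut.

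*Mmp7* (chr9:7692090-7699585), the matrix protease that activates defensin precursors, had 1.79 and 5.81 UMIs per 10000 (log2 1.70, 1.48 to 1.93). Its values in the lowest, median and highest cell were 0, 0 and 28.1 in control and 0, 2.69 and 56.6 in Taf4 IEC. The difference was larger in defensin-poor cells. In defensin-rich cells *Mmp7* was at 5.34 and 6.11 (log2 0.19, -0.11 to 0.51), while in cells under 100 defensin UMIs per 10000 it was at 0.944 and 5.65 (log2 2.58, 2.25 to 2.93). However, 1 control cell held the highest *Mmp7* level of the defensin-rich cells, and without it the level in the other 11 was 2.78 (log2 1.14, 0.72 to 1.58).

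Other Paneth genes were level or lower. Colipase, *Clps*, was at 9.13 and 5.54 per 10000 (log2 -0.72, -0.84 to -0.60), and in defensin-rich cells at 35.6 and 11.7 (log2 -1.60), although 25.7% of its control UMIs came from 1 cell. The stress protein gene *Nupr1* was at 10.4 and 8.30 (log2 -0.33), and the receptor tyrosine kinase gene *Kit* at 0.941 and 0.594 (log2 -0.66, -1.06 to -0.27). The surface protein gene *Cd24a* had 8.95 and 10.4 (log2 0.21), a sign that turns when housekeeping genes are left out of the total. Of the 9 measured effectors beside *Lyz1*, 3 were at least 2-fold higher, 0 were at least 2-fold lower, and the median log2 ratio was -0.10. The summed level of the list was 72.7 and 213.5, opposite in sign to that median, because *Ang4* and *Itln1* supply most of it.

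**Figure D2:**
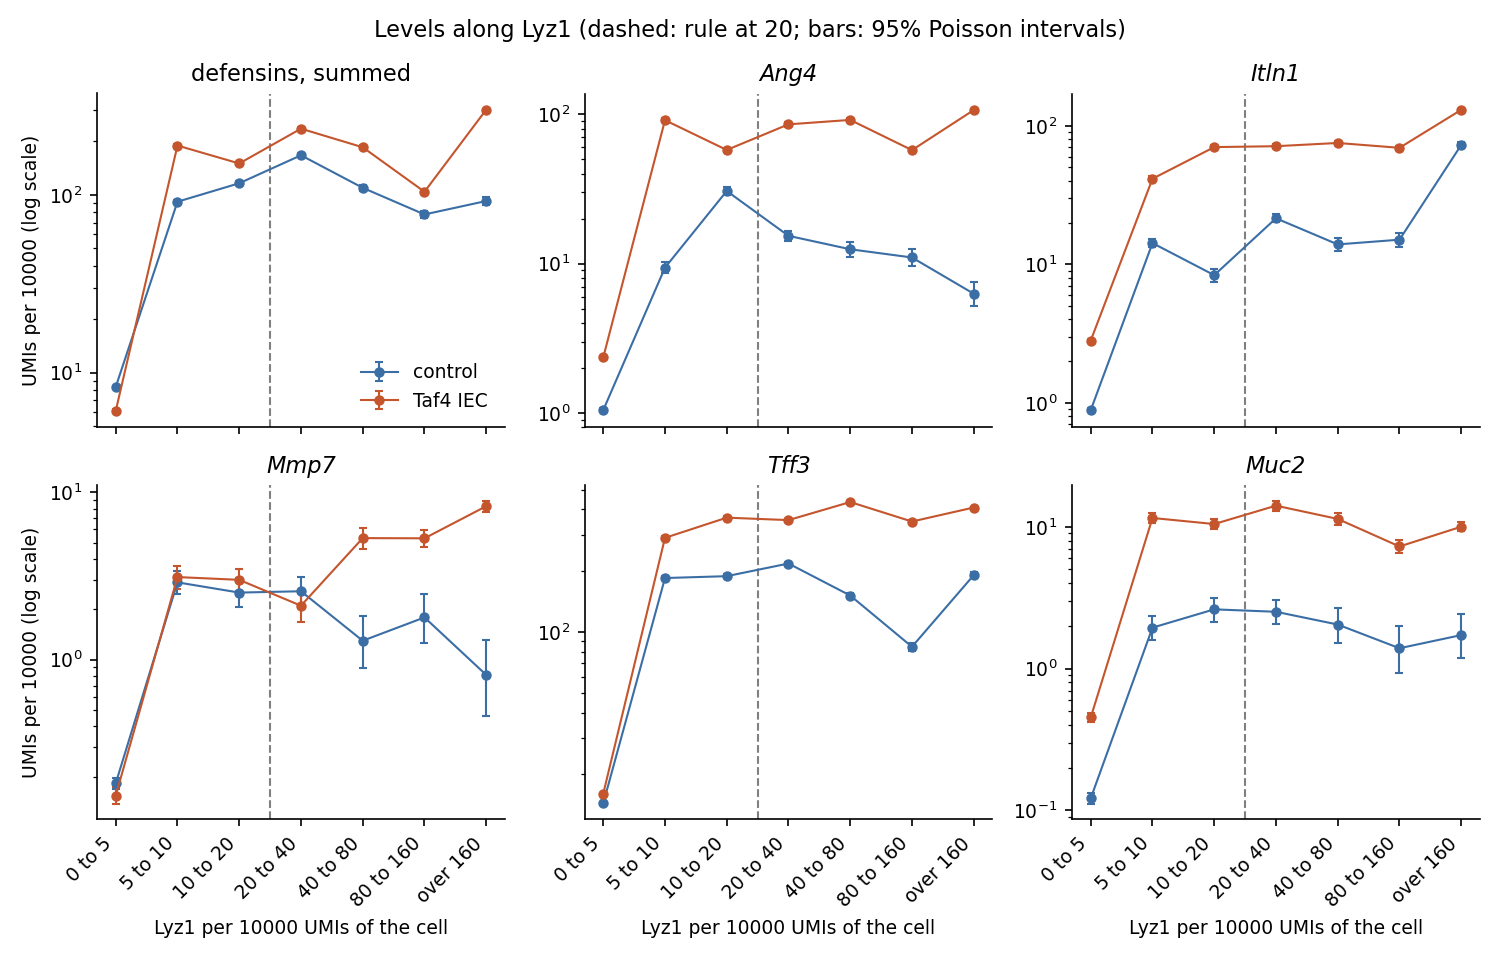
Levels of 6 genes or sums along *Lyz1* in cells of at least 2000 UMIs, summed over the cells of each *Lyz1* band on a log scale with 95% Poisson intervals; blue is control, orange Taf4 IEC, and the dashed line marks the threshold of 20. *Ang4*, *Itln1*, *Tff3* and *Muc2* lie higher in Taf4 IEC in every band, whereas *Mmp7* separates only above 40, and no level near the threshold differs by as much as it does from the band of 0 to 5.

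*Lyz1* was higher in Taf4 IEC, so levels were also compared in bands of equal *Lyz1*: 20 to 40 (26 control and 14 Taf4 IEC cells), 40 to 80 (15 and 15), 80 to 160 (9 and 18) and over 160 (10 and 27). *Ang4* was higher in Taf4 IEC in all 4 bands, by 2.48, 2.88, 2.39 and 4.08 log2 units. *Itln1* differed by 1.73, 2.43, 2.20 and 0.84, and *Muc2* by 2.49, 2.47, 2.38 and 2.54. These genes were thus higher at like *Lyz1* as well. *Defa24* differed by -0.17, 0.70, 0.38 and 1.47 and *Mmp7* by -0.29, 2.04, 1.57 and 3.35, so that in the lowest band neither was higher. *Clps* turned from -1.63 over 0.04 and 0.11 to 1.81.

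The threshold of 20 cut through a continuous range. Just outside it, in cells of 15 to 20 *Lyz1* UMIs per 10000 (15 and 12 cells), defensins were at 107 and 224, *Ang4* at 4.64 and 78.0 and *Tff3* at 129 and 428. Just inside, at 20 to 25 (11 and 6 cells), they were at 220 and 42.0, 14.3 and 54.7, and 110 and 272. In cells of 0 to 5, *Ang4* was at 1.04 and 2.35 and *Tff3* at 14.4 and 16.0. Over the cells of each library, *Lyz1* and defensins had a Spearman's rho of -0.09 (60 control cells) and 0.06 (74 Taf4 IEC cells), *Lyz1* and *Itln1* of 0.54 and 0.35, *Ang4* and *Itln1* of -0.04 and 0.62, and *Tff3* and *Muc2* of 0.68 and 0.58. The cells of a library share their depth and free RNA, and depth and *Lyz1* had a rho of 0.32 and 0.14.

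**Figure D3:**
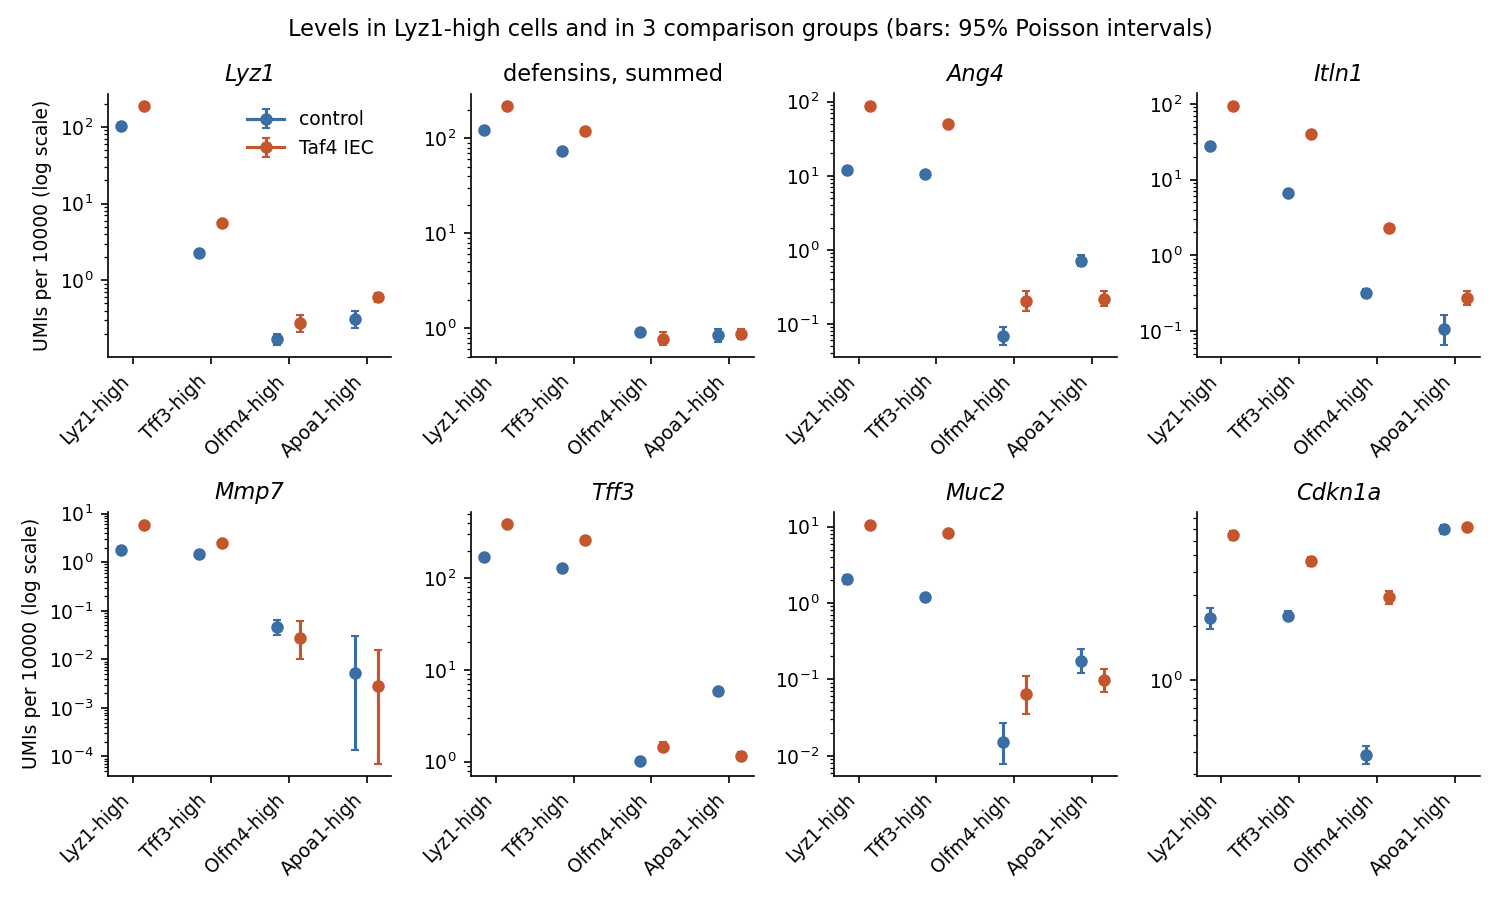
Summed levels of 8 genes or sums (UMIs per 10000, log scale, 95% Poisson intervals) in *Lyz1*-high cells and in goblet (*Tff3*-high), stem (*Olfm4*-high) and enterocyte (*Apoa1*-high) comparison cells; blue is control, orange Taf4 IEC. Defensins, *Ang4*, *Mmp7* and *Muc2* in *Tff3*-high cells lie near the *Lyz1*-high cells and far above the stem and enterocyte groups.

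The nearest cells were goblet comparison cells, taken with *Tff3* of at least 20 and *Lyz1* under 20 per 10000 (289 and 117 cells). They held defensins at 73.7 and 119 per 10000, against 123 and 220 in *Lyz1*-high cells. *Ang4* was at 10.5 and 49.5, *Itln1* at 6.59 and 40.2, and *Muc2* at 1.20 and 8.14, so in these cells too the Taf4 IEC values were higher. In control, *Ang4* thus differed little between *Lyz1*-high and *Tff3*-high cells (12.1 and 10.5), whereas *Itln1* differed 28.0 to 6.59. In stem comparison cells (372 and 92, *Olfm4* of at least 10) defensins were at 0.916 and 0.780 and in enterocytes at 0.850 and 0.871.

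Goblet genes in *Lyz1*-high cells were higher in Taf4 IEC nearly throughout the list. Of 12 measured genes 11 were higher, 7 at least 2-fold, with a median log2 ratio of 1.18. At least 2-fold higher were 6.21% of all 7016 genes of at least 30 UMIs. The minimum of 30 UMIs over both libraries favours genes high in Taf4 IEC. *Rep15* and *Clca1*, given below, passed it only with their Taf4 IEC UMIs. *Tff3* had 4.47, 106 and 1185 UMIs per 10000 in the lowest, median and highest control cell and 9.62, 287 and 992 in Taf4 IEC, a summed log2 ratio of 1.18 (1.16 to 1.20). *Spink4* differed by 1.42, with medians of 115 and 312. *Muc2* had medians of 0.497 and 4.42 and maxima of 12.6 and 67.0, and its level was 2.04 and 10.4 (log2 2.34, 2.14 to 2.55). The Fc-gamma binding mucus protein gene *Fcgbp* was at 22.3 and 50.2 (log2 1.17), and *Rep15* at 4 and 54 UMIs (log2 2.79). All 190 control UMIs of the lectin gene *Zg16* came from 1 cell, against 3419 UMIs in 25 Taf4 IEC cells (log2 3.21). The mucus metalloprotease gene *Clca1* had 1 and 178 UMIs, 62.4% of the latter in 1 cell. *Galnt12*, a mucin glycosyltransferase gene, was the exception (log2 -0.16). In the other deep cells the median of this list was 0.88.

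Secretory lineage factors differed less. *Atoh1*, which commits crypt cells to the secretory fate, was at 0.593 and 0.812 per 10000 (log2 0.45, 0.03 to 0.89), and *Spdef*, which acts in goblet and Paneth maturation, at 0.668 and 1.13 (log2 0.75, 0.36 to 1.16). In the other deep cells *Atoh1* was instead lower in Taf4 IEC (log2 -0.65, -0.96 to -0.34), and *Spdef* differed by 0.03. Within *Lyz1*-high cells the *Atoh1* ratio was 1.19 (0.18 to 2.37) in defensin-rich cells, from 9 and 72 UMIs. It was 0.17 (-0.32 to 0.68) in the remaining cells and -0.32 (-0.90 to 0.26) in those under 10 defensin UMIs per 10000. *Hes1*, the Notch target that represses *Atoh1*, was at 0.753 and 0.338 (log2 -1.15, -1.64 to -0.67). *Sox9*, which Paneth cells need, was lower by less (log2 -0.42, -0.77 to -0.06). Of 12 measured factors, 0 were at least 2-fold higher and 1 at least 2-fold lower, with a median of 0.13, so that the list as a whole lay near the median of all tested genes, 0.07.

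Niche ligands divided. *Wnt3*, the Wnt that Paneth cells pass to stem cells, was at 0.979 and 0.797 per 10000 (log2 -0.30, -0.66 to 0.07), and the Notch ligands *Dll1* and *Dll4* at log2 -0.82 (-1.58 to -0.06) and 0.75 (-0.51 to 2.22) from 30 and 33 and from 7 and 23 UMIs. The EGF receptor ligand amphiregulin, *Areg*, was at 0.640 and 4.93 (log2 2.94, 2.59 to 3.32), with a UMI in 18 of 60 and 54 of 74 cells, and thinned in 6.67% and 41.9%. Betacellulin, *Btc*, another ligand of that receptor, had 17 and 69 UMIs (log2 1.06, 0.28 to 1.92). *Btc* passed the minimum of 30 UMIs only with its Taf4 IEC UMIs. Of 7 measured ligands 2 were at least 2-fold higher and 0 lower, with a median of 0.30. Of all 7016 genes of at least 30 UMIs, 6.21% were at least 2-fold higher. *Wnt11*, *Wnt5a* and *Wnt6* had no UMI.

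**Figure D4:**
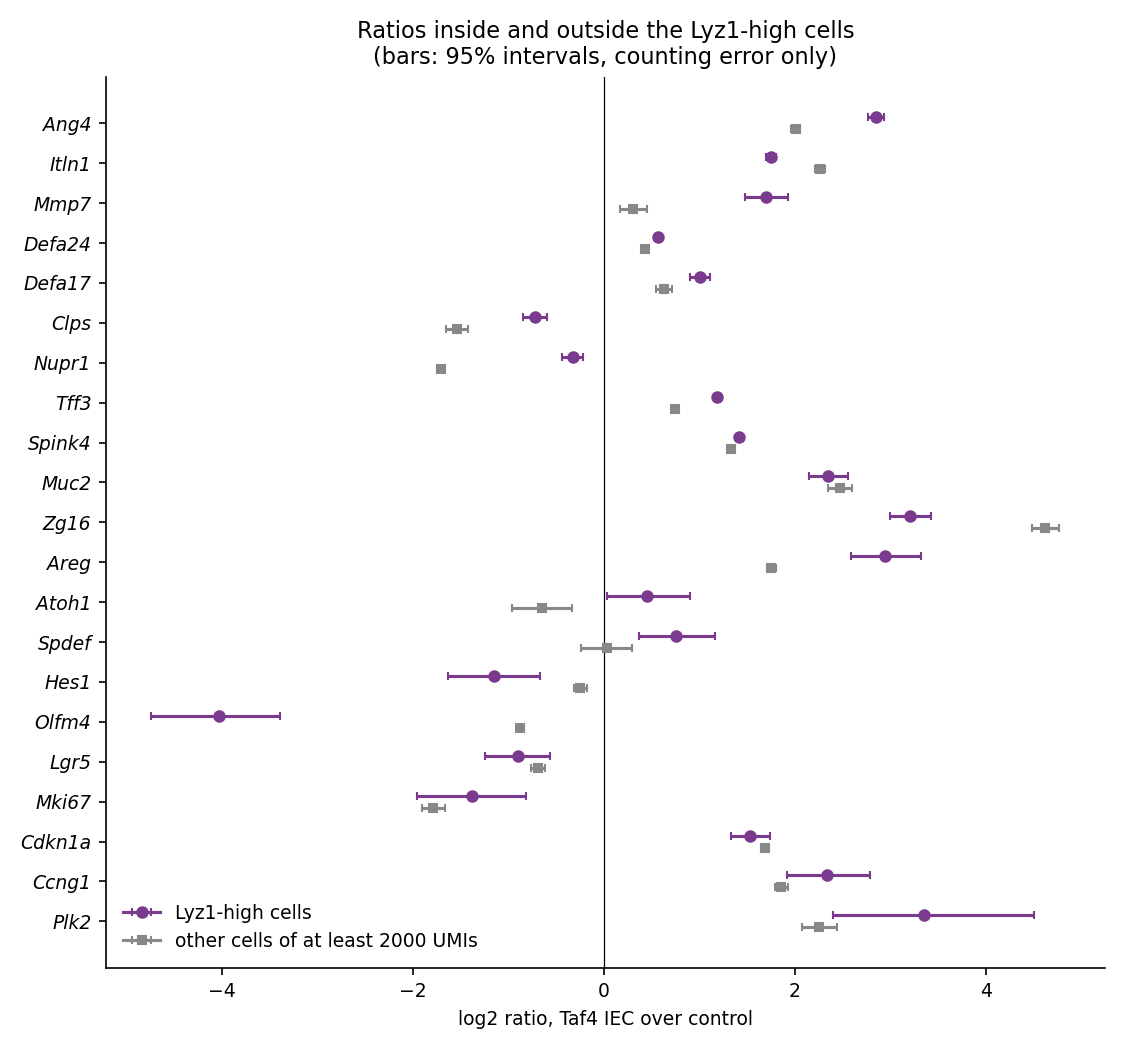
Log2 ratio of Taf4 IEC over control for 21 genes in *Lyz1*-high cells (purple circles) and in the other cells of at least 2000 UMIs (grey squares), with 95% intervals for counting error. *Mmp7*, *Areg* and *Ang4* lie further to the right and *Olfm4* further to the left in *Lyz1*-high cells, *Itln1* and *Zg16* lie further to the right in the other cells, and *Atoh1* is on opposite sides of 0.

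Several of these differences were also seen in the sum of the other deep cells. The log2 ratio there was 2.01 for *Ang4*, 2.26 for *Itln1*, 0.31 for *Mmp7*, 0.43 for *Defa24* and 1.75 for *Areg*. Those cells include the *Tff3*-high goblet comparison cells, in which *Ang4* and *Itln1* were higher in Taf4 IEC too. In enterocytes *Ang4* was instead lower, so its ratio does not hold for every cell type. Ratios of the other deep cells without the goblet comparison cells were not computed. The ratio was larger inside *Lyz1*-high cells for *Ang4*, *Mmp7* and *Areg*, and larger outside for *Itln1*. Of the control UMIs in *Lyz1*-high cells, 1 cell held 36.8% for *Areg* and 30.5% for *Mmp7*. The intervals do not cover such variation among cells, and whether the ratios differ beyond it was not tested. *Clps* and *Nupr1* were lower outside as well, by more (log2 -1.54 and -1.71).

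Among stem cell genes *Olfm4* and *Lgr5* were lower. *Olfm4*, which marks crypt base stem cells, was at 1.74 and 0.106 per 10000 (log2 -4.03, -4.74 to -3.39), where the other deep cells had -0.88. *Olfm4* reached 10 per 10000 in 5 control and 2 Taf4 IEC cells. Its median was 0 in both libraries, with a UMI in 27 of 60 and 11 of 74 cells. In the band of *Lyz1* over 160 its levels were 0.101 and 0.0380. In the bands from 20 to 160, control lay between 1.26 and 3.88 and Taf4 IEC between 0.0977 and 0.193. The ratio thus rests on a minority of control cells. The Wnt target and receptor gene *Lgr5* was at 1.35 and 0.720 (log2 -0.90, -1.24 to -0.56), against -0.69 in the other cells. Of 11 measured stem genes 8 were lower and 3 higher, 3 of them at least 2-fold lower and 0 at least 2-fold higher, with a median of -0.36.

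Cell cycle genes were lower when summed over all cells. All 13 measured S phase genes were lower in Taf4 IEC, 10 of them at least 2-fold (median log2 -1.70), and so were all 16 G2/M genes, 10 at least 2-fold (median -1.15). Of all 7016 genes of at least 30 UMIs, 3.11% were at least 2-fold lower. *Mki67*, the proliferation antigen, was at 0.593 and 0.227 (log2 -1.38, -1.96 to -0.82), and the topoisomerase gene *Top2a* at 0.932 and 0.386 (log2 -1.27, -1.71 to -0.83). *Mki67* differed by -3.31 (-4.45 to -2.28) in defensin-rich cells but by -0.49 (-1.21 to 0.25) in the remaining cells. In those under 10 defensin UMIs per 10000 it differed by 0.10 (-0.69 to 0.92). These last 2 ratios rest on 1 Taf4 IEC cell under 10, which held 57.4% of the 47 *Mki67* UMIs of that library. The cells under 100 had 36 of these UMIs in all, and those under 10 had 34. Without the cell of highest level in each library, *Mki67* differed by -2.32 (-3.14 to -1.55) over all *Lyz1*-high cells. In the band of *Lyz1* over 160, however, 14 of the 16 G2/M genes were higher in Taf4 IEC, with a median of 0.96, against 0, 2 and 0 of 16 in the 3 lower bands. *Mki67* differed there by 1.28. Of all UMIs in Taf4 IEC *Lyz1*-high cells, the cell richest in the gene held 57.4% for *Mki67*, 75% for *Cenpf* and 65.2% for *Hmmr*. S phase genes in that band were not: 3 of 13 were higher and 10 lower, with a median of -1.19.

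Targets of p53 were higher. Of 19 measured targets 18 were higher in Taf4 IEC, 8 at least 2-fold and 0 lower by as much, with a median log2 ratio of 0.96, against 1.19 in the other deep cells. Of all 7016 genes of at least 30 UMIs, 6.21% were at least 2-fold higher and 3.11% at least 2-fold lower. The cell cycle inhibitor gene *Cdkn1a* had 0, 1.15 and 17.9 UMIs per 10000 in the lowest, median and highest control cell and 0, 4.87 and 25.4 in Taf4 IEC, and its level was 2.22 and 6.42 (log2 1.53, 1.33 to 1.74). Cyclin G1, *Ccng1*, was at 0.471 and 2.38 (log2 2.34, 1.92 to 2.79), and the kinase gene *Plk2* at 0.0847 and 0.865 (log2 3.35). *Plk2*, with 9 and 179 UMIs, passed the minimum of 30 only with its Taf4 IEC UMIs. That minimum is taken over both libraries and favours genes high in Taf4 IEC, so the counts of targets are descriptions. *Bbc3*, the apoptosis gene also called Puma, was not higher (log2 -0.27, -1.17 to 0.66). In control, *Cdkn1a* was at 6.93 in enterocytes and 0.387 in stem comparison cells, so the Taf4 IEC *Lyz1*-high cells lay near control enterocytes. The level was high in that library outside these cells too. In cells of 0 to 5 *Lyz1* UMIs per 10000 it was 1.62 in control and 5.64 in Taf4 IEC.

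Secretory machinery, on which granule cells rely, differed little. Of 26 measured genes of endoplasmic reticulum stress and secretion, 11 were higher and 15 lower, 0 at least 2-fold higher and 1, the phosphatase regulator *Ppp1r15a*, at least 2-fold lower (log2 -1.04, from 18 and 17 UMIs), with a median of -0.11. The chaperone gene *Hspa5* was at 5.04 and 5.22 (log2 0.05, -0.10 to 0.20) and the factor *Xbp1* at 1.86 and 1.99 (log2 0.10, -0.15 to 0.35). *Agr2*, a disulfide isomerase of mucin folding, was higher (log2 0.91, 0.85 to 0.98), and the stress-induced secreted factor *Manf* lower at 4.27 and 2.75 (log2 -0.64). The 10 measured autophagy and lysosome genes had a median of 0.14, with none past 2-fold. *Lamp1*, a lysosomal membrane protein gene, had the largest ratio of that list (log2 0.87).

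The remaining lists were small or level. Of 4 measured antimicrobial genes outside the Paneth lists, 1 was at least 2-fold higher, *Reg3g*, with 11 and 102 UMIs of which 86.3% lay in 1 cell. *Reg4*, a lectin gene of secretory cells, was at 18.4 and 28.7 (log2 0.64). Of 12 enterocyte genes 4 were at least 2-fold higher, with a median of 0.54, where 6.21% of all 7016 genes of at least 30 UMIs were. The aminopeptidase gene *Anpep* had 31 and 626 UMIs (log2 3.37), and 90.8% of the 305 Taf4 IEC UMIs of *Fabp1* came from 1 cell. The summed enterocyte level was 6.35 and 12.4, against 237 and 242 in enterocytes, and 0 *Lyz1*-high cells met the enterocyte condition. The 13 glycolysis genes (median 0.32), the 7 genes of Polycomb repressive complex 2 (PRC2, median 0.02) and the 17 genes of low-quality RNA (median -0.01) had none past 2-fold. The 8 tuft genes had no UMI, and the list of immune, endothelial and stromal markers had 8 and 11 UMIs in all, with *Cd3e*, *Cd79a*, *Col1a1*, *Csf1r* and *Pecam1* at 0.

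**Figure D5:**
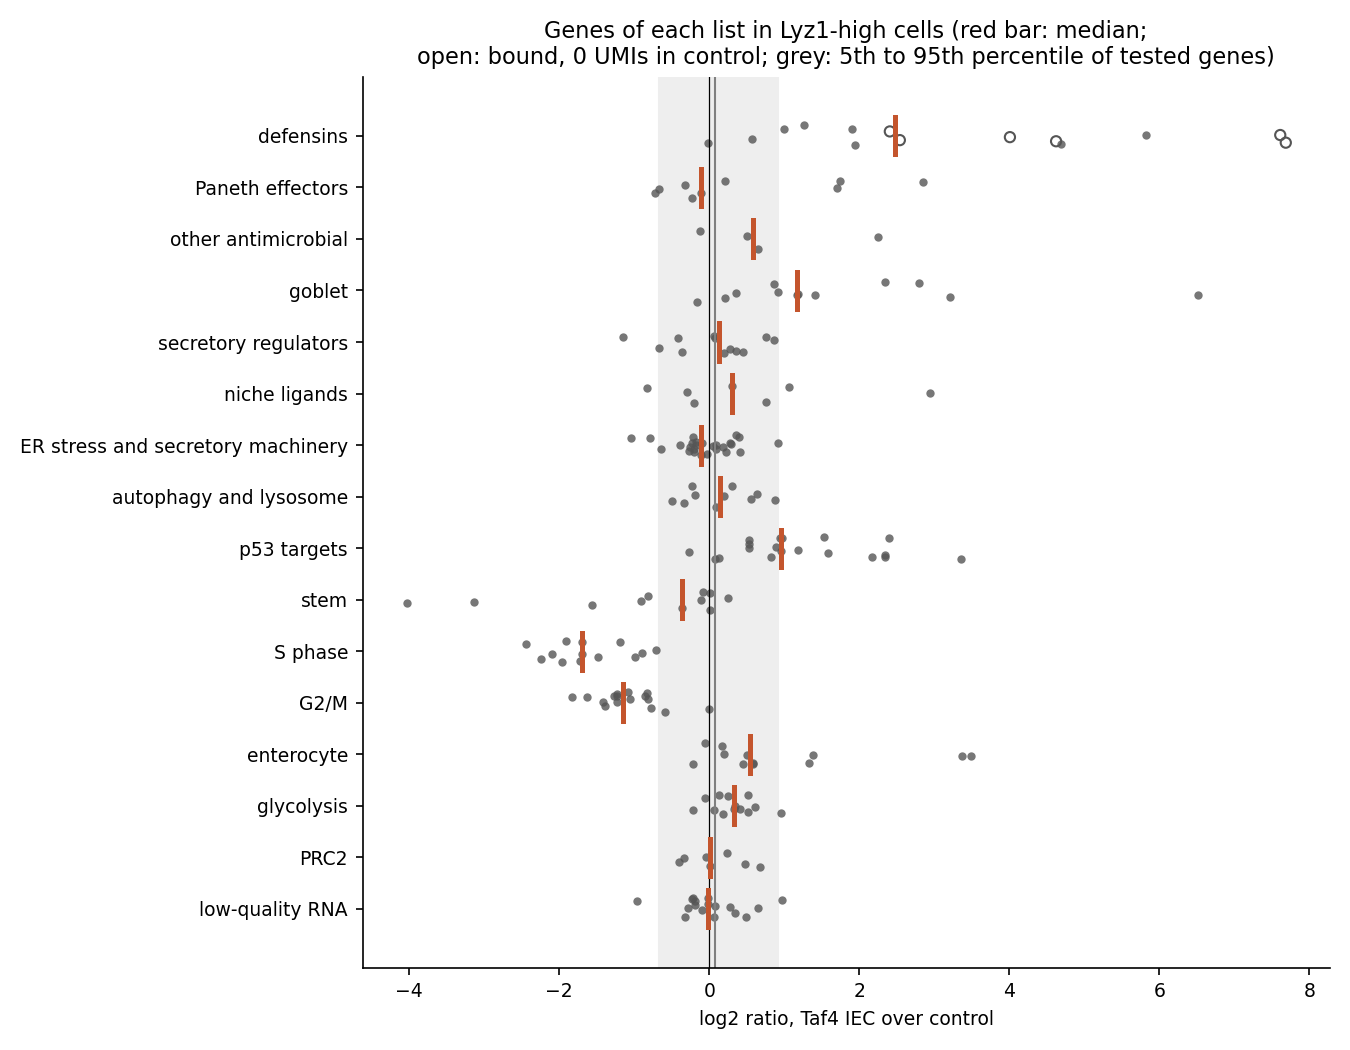
Log2 ratio of Taf4 IEC over control in *Lyz1*-high cells for each gene of 16 lists with at least 30 UMIs; red bars are list medians, open circles are bounds for genes with 0 control UMIs, and grey spans the 5th to 95th percentile of all tested genes. Defensins (median 2.47), goblet genes (1.18) and p53 targets (0.96) lie to the right and S phase (-1.70) and G2/M genes (-1.15) to the left.

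Among enteroendocrine genes that the rule did not use, *Neurog3*, which starts the endocrine fate, had 21 and 263 UMIs (log2 2.68). *Insm1* had 16 and 146 UMIs (log2 2.23), while the hormone gene *Cck* had 43 and 22 (log2 -1.93). The Taf4 IEC *Neurog3* UMIs were all in 7 cells, at 8.07 to 30.9 per 10000, and 6 of these cells had an *Insm1* UMI. The same 7 cells had *Lyz1* at 39.6 to 974, *Tff3* at 212 to 535 and no *Atoh1* UMI. In control, *Neurog3* UMIs lay in 6 cells, none of which reached 5 per 10000. These 7 cells were picked after the values were seen.

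Over all genes, 3250 had at least 100 UMIs over both libraries, and of these 126 (3.88%) were at least 2-fold higher and 45 (1.38%) at least 2-fold lower in Taf4 IEC *Lyz1*-high cells. In the other deep cells, where UMIs were far more numerous, these shares were 7.03% and 4.02% of 10918 genes. Of the 126 and 45 genes, 66 and 24 also passed 2-fold in the other cells, and 108 and 33 had the same sign in all 4 *Lyz1* bands. Ribosomal protein genes were 34.8% of UMIs in control and 24.8% in Taf4 IEC. When these, mitochondrial genes, *Gm42418* and *AY036118* were left out of the total, every ratio moved by -0.25 and the split became 72 higher and 108 lower genes. The counts of higher genes in the lists therefore include small ratios whose sign then turns, such as that of the p53 target *Rps27l* (log2 0.08).

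At the upper end stood defensins and genes of few control UMIs. *Ly6a*, the Sca-1 surface antigen, had 2 UMIs in 2 control cells and 287 in 31 Taf4 IEC cells (log2 6.20, 4.34 to 9.26). *Cyp2e1*, a cytochrome P450 gene, had 0 and 135 UMIs, and 0 UMIs in all other deep control cells too. With the floor of 3 counts it was 23.1-fold higher (lower limit of the log2 ratio 4.21). *Sft2d1* had 3 and 102 UMIs (log2 4.13, 2.54 to 6.43) and *Sprr2a1* 3 and 103 (log2 4.14, 2.55 to 6.44), the latter uncertain because *Sprr2a3* is a near copy.

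At the lower end *Gm10260*, a ribosomal protein gene copy, had 731 UMIs in control and 0 in Taf4 IEC, 475-fold lower with the floor of 3 counts. *Bex1* had 310 and 1 UMIs (log2 -9.24, -14.55 to -6.75). Both were far lower outside *Lyz1*-high cells too (log2 -10.37 and -7.24). The replication genes *Pclaf* and *Dut* followed (log2 -2.65 and -2.20), with *Gm47283* (-2.66), *Ppp1r1b* (-2.07), the oxidase subunit gene *Cyba* (-1.92), *Spp2* (-1.78), *Gstt2* (-1.78) and *Slc29a1* (-1.67). The stress-responsive factor *Jun* was at 2.09 and 0.657 (log2 -1.67, -1.99 to -1.35).

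Genes with the TATAAA letters were compared with those without, in a list made after values had been seen. Of the tested genes 58 had TATAAA on the forward strand between 45 and 15 bases before the RefSeq start, and 13 of these (22.4%) were at least 2-fold higher and 0 at least 2-fold lower, with a median log2 ratio of 0.22. Of 2536 tested genes whose promoter lacked it, 78 (3.08%) were at least 2-fold higher and 32 (1.26%) lower, with a median of 0.07. The 13 were *Defa21*, *Defa22*, *Cyp2e1*, *Fabp1*, *Areg*, *Sprr2b*, *Reg3g*, *2610528A11Rik*, *Cyp2c55*, *Mmp7*, *Gm5485*, *Anxa2* and *Ncoa4*, of which the 2 defensins are near copies and several rest on 1 cell. Of the 13, 10 had under 100 control UMIs and 3 had none, so that they passed the minimum only with their Taf4 IEC UMIs, as did 102 of all 126 genes at least 2-fold higher. In the other deep cells all of the 13 but *Reg3g* (log2 -0.50) were higher in Taf4 IEC too. They ranged from 0.31 for *Mmp7* to 5.89 for *Cyp2e1* with the floor of 3 counts. Of the 13, *Mmp7*, *Gm5485* (0.75), *Anxa2* (0.78) and *Reg3g* did not reach 2-fold there. A higher level of most of these genes was thus not particular to *Lyz1*-high cells. The shares of genes with and without the letters were not computed in the other deep cells. A promoter entry existed for 2594 of the 3250 tested genes and for 91 of the 126. Both shares are therefore descriptions, and a match of letters does not show a bound site.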

How the data were processed

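Libraries of 10X Genomics 3′ single-cell RNA-seq, 1 per condition, were used. The authors deposited raw UMI counts of each gene in each cell. The submitters' processing notes name bcl2fastq 2.17.1.14, Cell Ranger 3.1, Seurat 3.1.4 and mm10. The methods of the study keep cells of 200 to 6000 genes and under 15% mitochondrial reads. The deposited cells have 269 to 5997 genes.

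Counts were analysed with Python 3.11.15, numpy 2.4.6, scipy 1.17.1, pandas 2.3.3 and matplotlib 3.10.9. Levels are UMIs summed over cells per 10000 with exact Poisson intervals, shares have Clopper-Pearson intervals, differences of shares the square-and-add interval of Newcombe, and log2 ratios the exact conditional binomial interval. A gene with 0 UMIs in 1 library was set to a floor of 3 counts over the library. Genes of at least 100 UMIs over both libraries, without the genes of the rule, were read at 2-fold, and list genes from 30 UMIs. Taf4 IEC cells held more UMIs, so both minimums favour genes that are high in Taf4 IEC. The steps were tested on simulated data. No doublet caller was run, and cells above the 95th percentile of UMIs were left out as an alternative.

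Named genes are *Taf4*, *Taf4b*, the genes of the rule, list genes of at least 30 UMIs, and the 12 highest and 12 lowest ratios. *Tpsg1* and the genes with TATAAA were named after their values were seen. Members and the 19 lists were chosen with earlier results of these data known. Alternatives changed the depth, *Lyz1*, enteroendocrine and *Muc2* conditions, the weighting, the total, thinning and the gene minimum. The split by defensins, the equal weighting of *Lyz1* bands and values without the cell of highest level were added after the data were seen.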

Additional observations from a re-analysis of the deposited data

How the results depend on the processing

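No paired analysis was possible because each condition had 1 library, and for the same reason no library could be left out. The difference in share kept its sign in all 7 alternatives (2.87 to 6.64 points). It was 2.87 points without cells of *Muc2* of at least 10, where the shares were 2.66% and 5.53%. The log2 ratio of summed defensins (0.84) was 0.75 with *Lyz1* of at least 10, 1.19 with at least 40, 0.91 without the enteroendocrine condition, 0.89 without the deepest cells, 0.65 without *Muc2*-rich cells, 0.80 with equal weight per cell, 0.81 thinned, 0.60 with the total free of housekeeping genes, 0.89 with the total free of defensins and effectors, 0.77 centred on the median gene, 0.89 with equal weight per *Lyz1* band and, where cells were divided by the sum itself, 0.00242 in defensin-rich and 0.85 in the remaining cells. The goblet median (1.18) under the same settings was 1.12, 1.34 and 1.24 with the changed *Lyz1* and enteroendocrine conditions, 0.71 without *Muc2*-rich cells, 1.31 thinned, 0.93 and 1.22 with the changed totals, 1.11 centred, 1.24 with equal bands, 0.94 in defensin-rich and 1.12 in the remaining cells. Genes at least 2-fold higher (126) numbered 21 of 290 when thinned, 72 without housekeeping genes, 928 of 9622 from 10 UMIs, 32 of 652 from 500 UMIs and 48 of 934 in defensin-rich cells. Genes at least 2-fold lower (45) numbered 72 without the enteroendocrine condition, 2 thinned, 108 without housekeeping genes, 573 from 10 UMIs, 4 from 500 UMIs and 28 in defensin-rich cells. Counts under other gene minimums, thinning or defensin-rich cells differ in the genes tested. The median of secretory machinery was 0.28 when thinned, that of G2/M genes -2.21 in defensin-rich and -0.30 in the remaining cells, and that of stem genes -0.76 without the enteroendocrine condition. The glycolysis median (0.32) turned to -0.0664 in defensin-rich cells. The niche ligand median turned to -0.15 with *Lyz1* of at least 40, and the effector median, -0.10, lay between -0.76 and 1.00. The cause of these shifts was not tested. Medians of p53 targets and S phase genes kept their sign in all 15 and 13 alternatives. Without the cell of highest level in each library, the log2 ratio was 0.92 for summed defensins, 1.98 for *Mmp7*, -0.50 for *Clps*, 0.17 for *Fabp1* and -0.33 for *Reg3g*.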
